A study of Drosophila melanogaster with 2 samples.

Results

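The larval cuticle protein (Lcp) genes studied here are 10 of the 14001 genes measured in Drosophila melanogaster larvae of the third instar: Lcp1, Lcp2, Lcp3, Lcp4, Lcp9, Lcp65Ac, Lcp65Ad, Lcp65Af, Lcp65Ag1 and Lcp65Ag2. They were chosen by name, and every FlyBase transcript of each gene was summed. Whole larvae homozygous for the HP1c allele f04929, grown at 25 °C and 70% humidity, gave 2 RNA sequencing libraries, labelled as replicates of this 1 group. The series was designed to compare a pair of genotypes, of which only the mutant one was analysed here, and no effect of the allele on any Lcp gene was computed. Nothing in the labels ties the replicates to separate cultures, and part of their spread may be technical.

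The insect cuticle is a layered extracellular matrix of chitin fibres and proteins secreted by the epidermis and renewed at each moult. Most Lcp proteins carry the Rebers and Riddiford chitin-binding domain, which ties the protein to chitin. Lcp1 to Lcp4 are known as major proteins of the soft cuticle of the third instar larva. The genes lie in compact clusters with related copies side by side, and pulses of the steroid hormone ecdysone time the transcription of many cuticle genes.

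The members fall into a cluster on chromosome arm 2R, a cluster on 3L and 1 gene by itself. On the BDGP6 assembly, Lcp1 (FBgn0002531), Lcp2 (FBgn0002533), Lcp3 (FBgn0002534) and Lcp4 (FBgn0002535) lie within 8381 bases (2R, 8430115 to 8438495). Lcp1 and Lcp2 are on the minus strand and Lcp3 and Lcp4 on the plus strand. The gap between the divergent genes Lcp2 and Lcp3 is 524 bases. The 5 members of the 3L cluster lie within 12404 bases (3L, 6132990 to 6145393). Lcp65Ag2 (FBgn0020637), Lcp65Ag1 (FBgn0020638) and Lcp65Af (FBgn0020639) are on the minus strand, and Lcp65Ad (FBgn0020641) and Lcp65Ac (FBgn0020642) on the plus strand. Lcp9 (FBgn0025578) is also on 2R (24779979 to 24780428, minus strand), 16.3 megabases from Lcp4.

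Among the 10 members, Lcp9 shared with the 2R cluster the annotated number of coding bases before the intron. Cuticle genes other than the Lcp genes were not compared for this feature. All 10 have an intron of 56 to 91 bases after the start of the coding sequence. In the 4 genes of the 2R cluster and in Lcp9, 12 coding bases precede the intron, which is enough for 4 codons. In the 5 members on 3L, 104 to 131 coding bases precede it. The encoded proteins are short, with 130 residues for Lcp1, 126 for Lcp2, 112 each for Lcp3 and Lcp4, 92 for Lcp9, 109 for Lcp65Ac, 108 for Lcp65Ad, 100 for Lcp65Af and 105 each for Lcp65Ag1 and Lcp65Ag2.

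Transcript levels of the 2R cluster were far above those of the members on 3L. Levels are given in TPM, estimated reads divided by the effective length of the transcript and rescaled to the same total in every library. Lcp1, Lcp2, Lcp3 and Lcp4 had a summed level of 14859 TPM in replicate 1 and of 23795 TPM in replicate 2. The 5 members on 3L summed to 24.1 and 35.9 TPM in the same libraries. Within a library, the 2R sum was 617 times the 3L sum in replicate 1 and 663 times in replicate 2, a mean of 640.1 ± 32.6 (SD, n = 2). The members of the clusters did not overlap in level, since the lowest gene of the 2R cluster, Lcp3, stood 8.16 and 7.61 times above the highest member on 3L, Lcp65Ac. All 10 members together took 1.51% of the TPM of replicate 1 and 2.40% of replicate 2, and 98.6% and 99.1% of that share came from the 2R cluster.

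**Figure D1:**
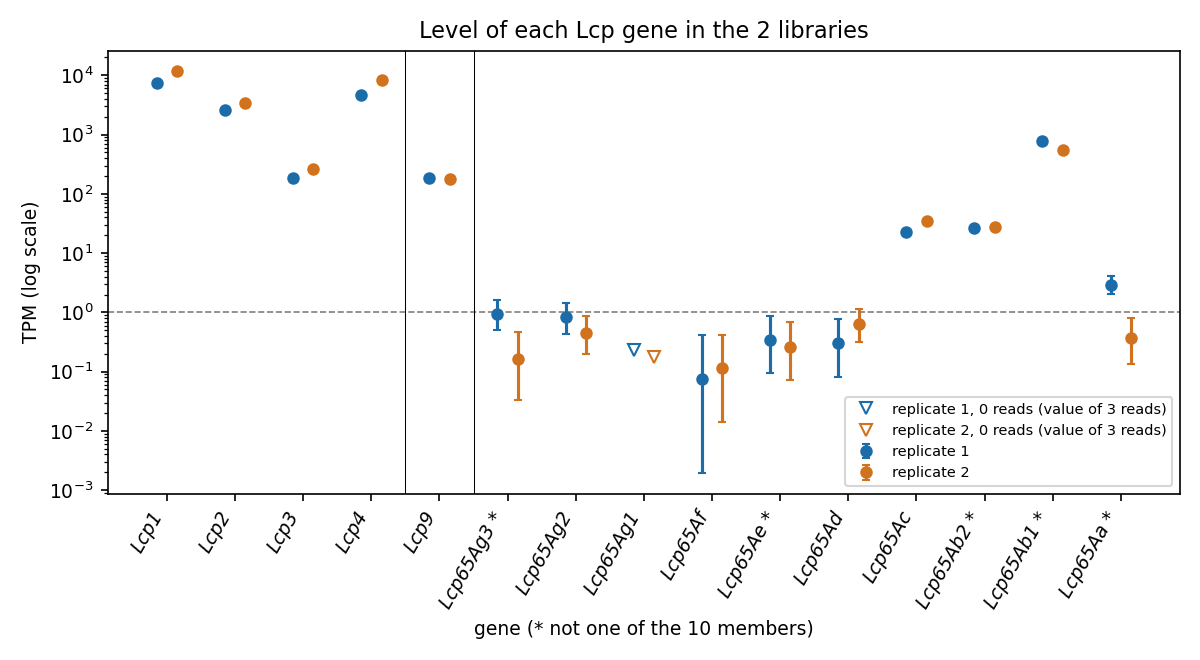
TPM of every protein-coding Lcp gene (log axis) in replicates 1 and 2, with 95% exact Poisson intervals for counting error, a dashed line at 1 TPM and open triangles at the value of 3 reads where a gene had 0 reads. The 4 genes of the 2R cluster (left) lie between 187 and 11840 TPM, and the members on 3L (right block, without asterisks) lie at 34.7 TPM or below.

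Lcp1 was the most abundant member, with 7360 TPM (95% interval 7315 to 7405) in replicate 1 from 103614 reads. In replicate 2 it had 11840 TPM (11791 to 11890) from 216919 reads. It ranked 17th and 5th among all genes in replicates 1 and 2. That ranking includes genes with rRNA in their symbol, which held 7.80% and 1.42% of the TPM. Lcp4 followed with 4740 TPM in replicate 1 and 8292 TPM in replicate 2, from 64964 and 147108 reads. Lcp2, the neighbour of Lcp1 and like it on the minus strand, had 2572 and 3398 TPM in replicates 1 and 2. These 3 genes kept the order Lcp1, Lcp4, Lcp2 in each library, and the ranges of Lcp1 and Lcp4 over the libraries overlapped.

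Lcp3 was the exception in this cluster. It had 187 TPM (interval 179 to 194) in replicate 1 and 264 TPM (256 to 272) in replicate 2. Lcp4, of the same strand and the same protein length, stood 25.4 times above Lcp3 in replicate 1 and 31.4 times above it in replicate 2. Lcp2, on the other side of the 524-base gap, stood 13.8 and 12.9 times above it. High transcript levels therefore flanked a gene with a much lower one inside the cluster.

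The make-up of the 2R cluster differed little between the libraries, although its sum did. Lcp1 held 49.5% of the summed TPM in replicate 1 and 49.8% in replicate 2. Lcp4 held 31.9% and 34.8%, Lcp2 17.3% and 14.3%, and Lcp3 1.26% and 1.11%. The ratio of Lcp1 to Lcp4 was 1.55 and 1.43 in replicates 1 and 2 (mean 1.49 ± 0.0883, SD, n = 2). The ratio of Lcp4 to Lcp2 was 1.84 and 2.44 (mean 2.14 ± 0.422), so Lcp2 held the smaller share in replicate 2.

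Each of the 4 genes of the 2R cluster is annotated with 2 transcripts that encode a protein of the same length and differ in the ends of the transcript. The shorter transcript took nearly all of the estimated level. The longer transcript held 0.0844% and 0.0619% of Lcp1 TPM in replicates 1 and 2, 0.520% and 0.367% of Lcp2, and 0.689% and 0.138% of Lcp3. Lcp4 had the most, with 2.22% and 1.49% in a transcript of 792 bases that extends past the 3′ end of the 527-base form. This transcript had 2407 and 3704 estimated reads, against 26.6 and 9.86 for the longer transcript of Lcp3. The error of sharing reads between isoforms is not covered by any interval given here. Lcp65Ad also has 2 transcripts, and its longer one had 0 reads in both libraries.

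Lcp9 lies apart from both clusters and had an intermediate level. It stood at 188 TPM (interval 179 to 197) in replicate 1 and 176 TPM (168 to 184) in replicate 2, a mean of 182 ± 8.36 TPM (SD, n = 2). Lcp3 and Lcp9 could not be ordered, since Lcp3 was 0.995 times Lcp9 in replicate 1 and above Lcp9 in replicate 2. Lcp9 has the shortest transcript of the members (394 bases), and its effective length was 63.2% and 61.4% of that, so its TPM depends most on the length correction. Its exons overlap the antisense gene asRNA:CR44067. No source used here says whether the libraries kept strand, and reads of the antisense gene could not be told apart from those of Lcp9.

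Among the members on 3L, Lcp65Ac was the one gene above 1 TPM. It had 22.9 TPM (interval 20.3 to 25.7) from 291 reads in replicate 1 and 34.7 TPM (31.9 to 37.6) from 573 reads in replicate 2. It held 94.99% and 96.6% of the summed TPM of the 5 members. Lcp9 stood 8.20 and 5.07 times above it in the same libraries.

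The other 4 members on 3L were at the limit of what the depth could show. Lcp65Ag2 had 0.829 TPM in replicate 1 and 0.456 TPM in replicate 2, from 11.7 and 8.34 estimated reads. Lcp65Ad had 0.301 and 0.637 TPM from 4 and 11 reads, and its intervals (0.0820 to 0.771 and 0.318 to 1.14 TPM) overlapped those of Lcp65Ag2. Lcp65Af had 1 read in replicate 1 and 2 reads in replicate 2, at 0.0757 and 0.116 TPM. Lcp65Ag1 had 0 reads in both libraries, and a floor of 3 reads corresponds to at most 0.228 TPM in the first library and 0.176 TPM in the second. The order of these 4 genes is not resolved at this depth.

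Lcp65Ag1 and Lcp65Ag2 share the older name Lcp8 in the RefSeq gene table, their proteins have the same length, and reads may have been divided between them and Lcp65Ag3. Their separate values are therefore uncertain. The sum over Lcp65Ag1, Lcp65Ag2 and Lcp65Ag3 was 25.0 reads (1.78 TPM) in replicate 1 and 11.3 reads (0.617 TPM) in replicate 2. Of these, 13.3 and 2.96 reads were placed on Lcp65Ag3. The exons of Lcp65Ag3 overlap the antisense gene asRNA:CR46005, whose reads could not be told apart from those of Lcp65Ag3. The group as a whole was thus low, whichever gene the reads came from.

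In all, 6 of the 10 members reached 1 TPM in both libraries: all 4 of the 2R cluster, 1 of 5 on 3L, and Lcp9. The count over all genes was 10900 of 14001.

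The 3L cluster holds further Lcp genes that are not among the members, and these carried most of its level. With 10 Lcp65A genes and the pseudogene Lcp65APsi, the full cluster spans 21418 bases (3L, 6130386 to 6151803). Lcp65Ab1 had 784 TPM (interval 766 to 802) in replicate 1 and 542 TPM (530 to 556) in replicate 2. It stood 4.20 and 2.06 times above Lcp3, and 34.3 and 15.6 times above Lcp65Ac. Lcp65Ab2, whose protein has the same length as that of Lcp65Ab1 (104 residues), had 26.6 and 28.0 TPM. The RefSeq gene table gives Lcp65Ab1 and Lcp65Ab2 the shared older name Lcp5, so the division of reads between them is uncertain. Their sum, which does not depend on that division, was 811 TPM in replicate 1 and 570 TPM in replicate 2.

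The comparison of the clusters thus depends on which genes stand for 3L. With all Lcp65A genes in the sum, 3L reached 839 and 607 TPM, and the 2R cluster stood 17.7 times above it in replicate 1 and 39.2 times in replicate 2. The mean was 28.5 ± 15.2 (SD, n = 2), against 640.1 for the 5 members. The 5 members held 2.87% and 5.91% of the Lcp65A sum, and Lcp65Ab1 alone held 93.5% and 89.4%. The 2R cluster was above 3L in both libraries under either choice.

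**Figure D2:**
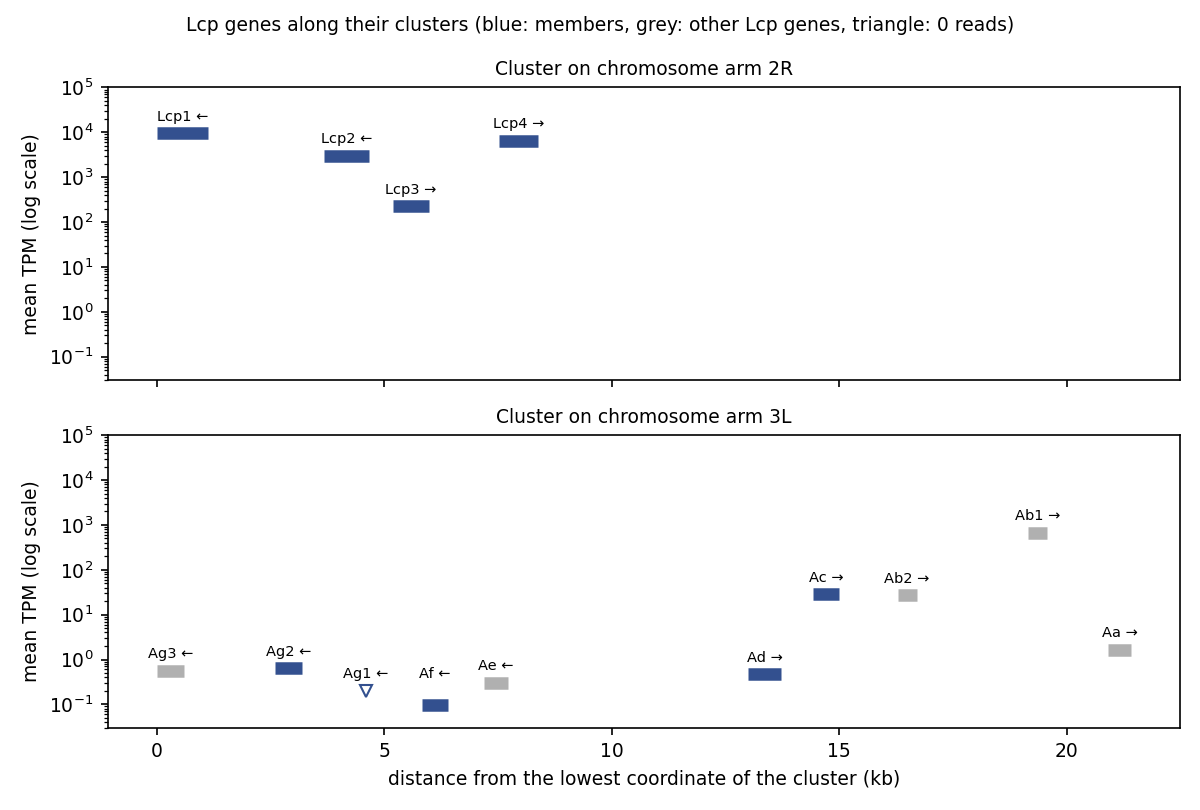
Mean TPM over the 2 libraries (log axis) of the protein-coding Lcp genes along each cluster, against distance in kilobases from the lowest coordinate, with bar length giving the gene's extent and arrows its strand. On 3L the Lcp genes on the minus strand lie below 1 TPM, and the highest gene, Lcp65Ab1 at 663 TPM, is not a member.

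Levels differed widely along the 3L cluster. The 5 Lcp genes on the minus strand, Lcp65Ag3, Lcp65Ag2, Lcp65Ag1, Lcp65Af and Lcp65Ae, were all under 1 TPM in both libraries. Lcp65Ae had 4 reads in each library, at 0.342 and 0.264 TPM. The 5 protein-coding Lcp genes on the plus strand ran from Lcp65Ad at 0.469 ± 0.237 TPM to Lcp65Ab1 at 663 ± 171 TPM (SD, n = 2). Among them, Lcp65Aa at the far end had 2.95 TPM in replicate 1 and 0.368 TPM in replicate 2, from 37 and 6 reads. Lcp65Ab1, Lcp65Ab2 and Lcp65Aa are annotated with 1 exon each, unlike the members. The pseudogene Lcp65APsi, also on the plus strand, had 0 reads in both libraries. Between the members also lie, on the minus strand, Cpr65Av, at 1.54 and 1.09 TPM, and Cpr65Aw, at 8.12 and 8.56 TPM in replicates 1 and 2, both of the wider cuticle protein family with the chitin-binding domain. In the 2R cluster the pseudogene Lcp1Psi, between Lcp1 and Lcp2, had 1 and 2 reads, so few reads were placed on it beside highly expressed neighbours.

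**Figure D3:**
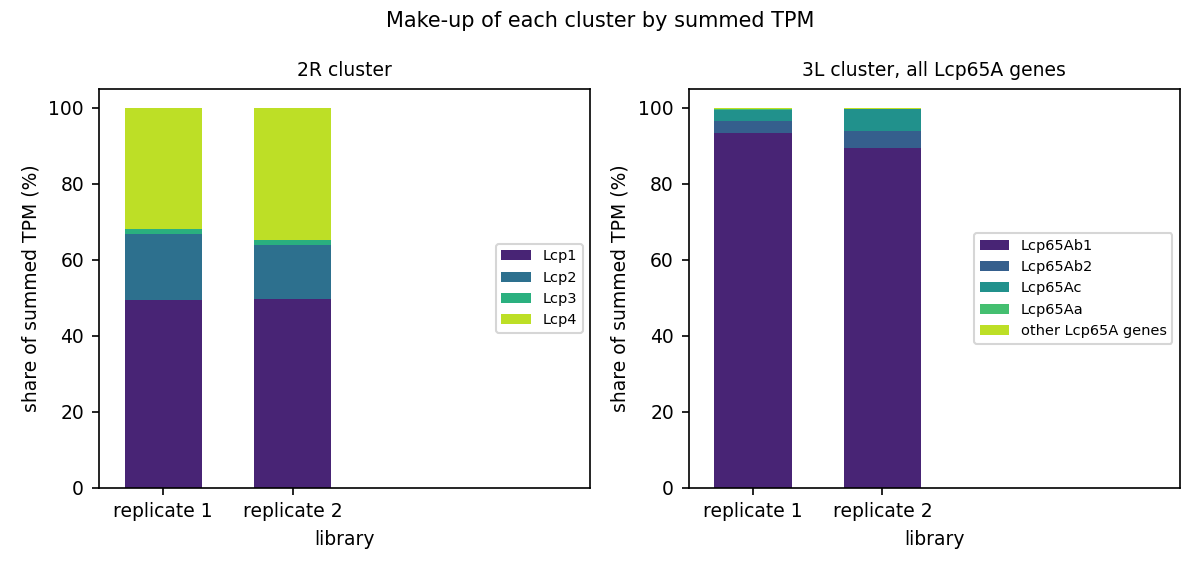
Share of the summed TPM (%) held by each gene in replicates 1 and 2, for the 4 genes of the 2R cluster and for all Lcp65A genes on 3L. Lcp1 holds 49.5% and 49.8% of the 2R cluster, and Lcp65Ab1 holds 93.5% and 89.4% of the 3L cluster.

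Among all 126 genes named for cuticle proteins (Lcp, Cpr, Ccp84, Tweedle and a few pupal and adult genes), a grouping made after the values were seen, Lcp1, Lcp4 and Lcp2 had the highest mean TPM. The 10 members held 70.2% of the TPM of these genes in replicate 1 and 79.9% in replicate 2. The next gene, Cpr49Ac, had 3131 TPM in replicate 1, above Lcp2 in that library, and 2449 TPM in replicate 2. Lcp3 and Lcp9 ranked 8th and 10th of the 126 by mean TPM.

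The replicates were compared to measure the spread of each member. This compares 2 libraries of 1 genotype and not conditions, so no p-value is given. Ratios were scaled by the trimmed mean of M-values (TMM), with exact 95% intervals for counting error, and a gene was counted as apart at a mean of 10 reads or more, a ratio of 2 or more and an interval excluding 1. None of the 7 members with enough reads was apart by this rule. Over all 12206 genes with enough reads, 5.42% were apart, 4.10% higher in replicate 1 and 1.32% higher in replicate 2. In whole larvae, fewer cells of a type and less RNA per cell cannot be told apart.

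The 4 genes of the 2R cluster were all higher in replicate 2. Lcp4 was 1.75-fold higher in replicate 2 (interval 1.73 to 1.77), Lcp1 1.62-fold (1.61 to 1.63), Lcp3 1.41-fold (1.35 to 1.49) and Lcp2 1.33-fold (1.31 to 1.34). Lcp65Ac, on 3L, was 1.52-fold higher in replicate 2 (1.32 to 1.76). Their direction was the same with library size alone and with DESeq2 size factors. Lcp9 was 1.07-fold higher in replicate 1 (1.004 to 1.15), and its log2 ratio of 0.10 became -0.09 with library size alone, so it has no stable direction. Lcp65Ag2 had a ratio of 1.94 towards replicate 1 with an interval of 0.730 to 5.48 that includes 1. The median log2 ratio of the 7 members, replicate 1 over replicate 2, was -0.50, and that of all genes was -0.02. With a threshold of 1.5-fold in place of 2-fold, Lcp1, Lcp4 and Lcp65Ac were higher in replicate 2 and no member was higher in replicate 1, beside 4.36% and 7.85% of all genes (12.2% in either direction). At 4-fold no member was apart, beside 1.66% of all genes, 1.34% higher in replicate 1 and 0.320% higher in replicate 2.

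The other genes of the 3L cluster had ratios of their own. Lcp65Ab1 was 1.45-fold higher in replicate 1 (interval 1.40 to 1.499), and Lcp65Ab2 was 1.05-fold higher in replicate 2 (0.889 to 1.24). Lcp65Aa was 7.98-fold higher in replicate 1 (3.34 to 23.1). Of the 17 genes named Lcp, 10 had enough reads. Lcp65Aa was the 1 gene of these that counted as apart, beside 5.42% of all genes with enough reads. Lcp65Ag3 had a mean under 10 reads.

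**Figure D4:**
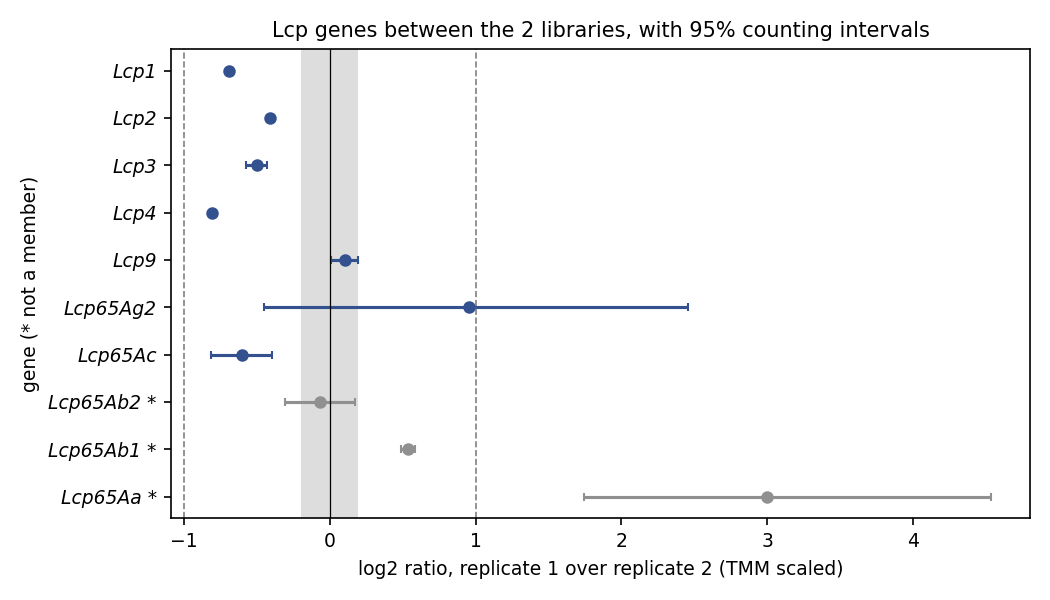
Log2 ratio of replicate 1 over replicate 2, TMM scaled, for the Lcp genes that averaged 10 reads or more, with 95% exact counting intervals, the quartiles of all genes in grey and dashed lines at 2-fold. The 4 genes of the 2R cluster and Lcp65Ac lie left of 0, Lcp65Ab1 lies to the right, and Lcp65Aa is the one gene past 2-fold with an interval that excludes 0.

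Other genes of the cuticle were counted by lists, whose medians are log2 ratios of replicate 1 over replicate 2 over the genes with enough reads, beside -0.02 for all genes. For comparison, 10900 of all 14001 genes reached 1 TPM in both libraries. Of the 12206 genes with enough reads, 4.10% were apart towards replicate 1 and 1.32% towards replicate 2. Of 11 other cuticle genes on 3L with names in Cpr65 or Acp65, which lie in or outside the cluster, 6 reached 1 TPM in both libraries, and these 6 had a median of 0.84. Of them 3 were apart towards replicate 1 and none towards replicate 2. The most abundant were Cpr65Ec at 20.1 and 13.2 TPM, Cpr65Aw, and Cpr65Ay at 3.82 and 1.03 TPM in replicates 1 and 2. Of the 6 other genes named Lcp in the lists, 2 reached 1 TPM in both libraries, and 1 of the 3 with enough reads, Lcp65Aa, was apart, with a median of 0.54. Of 14 pupal and adult cuticle genes, 2 reached it: Pcp, a pupal cuticle protein gene, at 194 and 305 TPM, and Edg91 at 8.53 and 7.80 TPM. Edg78E, of the pupal cuticle, had 1.06 and 0.271 TPM, and Acp65Aa, an adult cuticle gene next to the 3L cluster, had 4 reads and 1 read. Of the 3 genes of that list with enough reads, Edg78E was apart, towards replicate 1, and the median was 0.12.

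Tweedle genes, which encode cuticle proteins without the Rebers and Riddiford domain, were low. Of the 26 listed, 4 reached 1 TPM in both libraries, led by Twdlalpha at 4.94 and 4.78 TPM, TwdlE at 5.75 and 3.09 TPM and TwdlT at 3.33 and 1.42 TPM in replicates 1 and 2. TwdlU, which the list left out, had 1.46 and 1.69 TPM. The median of the 8 with enough reads was 0.82, with 3 apart towards replicate 1 and 1 towards replicate 2. The genes of chitin synthesis and cuticle assembly were all detected, 18 of 18 measured of 20 listed. Cht10, a chitinase, had 115.4 and 73.6 TPM, and verm, a chitin deacetylase, 111 and 70.7 TPM. The chitin-binding matrix gene obst-A had 135 TPM in replicate 1 and 44.03 TPM in replicate 2. The list's median was 0.21, with 2 genes apart towards replicate 1 and none towards replicate 2.

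Hormone response and stage genes also differed between the libraries. Of 15 genes listed for ecdysone pulses, 6 were apart towards replicate 1 and none towards replicate 2, with a median of 0.57. Over all genes with enough reads, 4.10% and 1.32% were apart in these directions. The list holds regulators and the ecdysone-inducible genes ImpE1 and ImpE2, which were among the 6. ImpE2, an ecdysone-inducible gene of imaginal discs, had 572 and 219 TPM in replicates 1 and 2, the broad gene br 233 and 148 TPM, and the receptor gene EcR 109 and 104 TPM. The nuclear receptor genes Hr3, at 8.25 and 0.901 TPM, and Eip78C, at 63.7 and 12.7 TPM, were past 4-fold, 8.19-fold (interval 7.11 to 9.47) and 4.90-fold (4.67 to 5.13). Of 11 stage genes of the third instar, all were detected and 2 were apart towards replicate 2, with a median of -0.10. The glue gene Sgs7 had 29704 and 59128 TPM, the fat body gene Fbp2 9456 and 10117 TPM, and the serum protein gene Lsp2 8537 and 8555 TPM. The 2 genes apart were Sgs3 and Sgs4, 2.10-fold (2.08 to 2.11) and 2.55-fold (2.53 to 2.57) higher in replicate 2. In this list 7 genes had log2 ratios below 0 and 4 above. Named after their values were seen, the glue genes Sgs7, Sgs5 and Sgs8 were 1.96-fold, 1.86-fold and 1.76-fold higher in replicate 2 without being apart. The 4 genes higher in replicate 1, also without being apart, were Lsp1alpha at 1968 and 998 TPM, Fbp1 at 9790 and 5482 TPM, Lsp1gamma at 2300 and 1322 TPM, and Lsp1beta at 4413 and 3861 TPM. The part of hormone response or stage in the levels of the 2R cluster was not tested.

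The libraries differed in content beyond these genes. They held 39745145 and 45177298 estimated reads, and 21 genes with rRNA in their symbol took 12.1% and 2.55% of them in replicates 1 and 2. All measured genes are annotated as protein-coding (13693) or as pseudogenes (308), so these 21 are not annotated as rRNA genes. The full rRNA content of the libraries was not measured. With those 21 genes left out and TPM rescaled, the 2R cluster summed to 16116 and 24138 TPM, so it was higher in replicate 2 without them too. The gene HP1c itself had 25 and 42 reads, and without a control these do not check the allele.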

How the data were processed

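The authors deposited, per the file headers, 1 table per library with transcript length, effective length, TPM and estimated counts of reads, whose column names are those of salmon. The quantifier, its genome build and its annotation are named in no source used here. Tools listed without roles in the submitters' processing notes are STAR 2.5.2, HTSeq 0.6.1, Picard, FastQC and bcl2fastq 2.18.0.12. Libraries were made from Trizol-extracted total RNA, per the labels' protocols. The deposited TPM equals reads over effective length, rescaled, to within 0.0315%.

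Of 30119 entries, 29992 matched the Ensembl release 115 annotation of BDGP6 by FlyBase identifier. Of these, 99.8% had the same length in both. The 127 others, with 0.0981% and 0.110% of the reads, were left out. TPM and reads were summed per gene.

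Estimated counts were rounded and scaled with TMM in edgeR 4.0.16 (R 4.3.3), with library size alone and DESeq2 1.42.0 size factors as alternatives. Log2 ratios had 0.5 reads added. Intervals at the 95% level are exact Poisson for levels and Clopper-Pearson for ratios. Both, and the floor of 3 reads, cover counting error only, as PCR copies of a molecule cannot be recognised without molecular identifiers. The calls were tested on counts simulated with Poisson error only, which leaves out spread between libraries beyond counting.

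The members and lists were chosen with earlier results of these data known. The text names all members, all other Lcp genes, the genes between members, the 3 most abundant genes of each of 7 lists, and list genes past 4-fold. With 2 libraries no likeness of pattern to other genes was computed. No sequences were used.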

Additional observations from a re-analysis of the deposited data

How the results depend on the processing

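The 2 libraries are 1 group, so the spread between independent larvae is not known, and depth limits the 4 members on 3L below 1 TPM. No paired analysis was possible because the libraries form a single group. The count of 6 members at 1 TPM or more in both libraries was the same in CPM, without the rRNA-named genes and with each library alone. The ratio of the 2R cluster to the 5 members on 3L was 640.1, and 617 to 663 with each library alone. It was 699 from summed reads, 12485 as a ratio of medians per gene, and 28.5 with all Lcp65A genes, a choice added after the data were seen. The 3L median was Lcp65Ad in replicate 1 (4 reads) and Lcp65Ag2 in replicate 2 (8.34 reads), so the size of 12485 is not resolved at this depth. Counting Lcp65Ag1 and Lcp65Ag2 as 1 gene cannot change a ratio of sums, so the 640.1 it returns is no check. The members' share was 1.95% of TPM (1.51% to 2.40% with each library alone) and 0.743% of reads. It was 2.03% of TPM without the rRNA-named genes and 2.02% with all Lcp genes, also added later. Library size alone moved all log2 ratios by -0.19 and DESeq2 size factors by 0.02. No member was apart with either scaling, without a filter, at 100 reads or at 4-fold, and 3 were at 1.5-fold. Summing Lcp65Ag1 and Lcp65Ag2 could not change this count, because Lcp65Ag1 had 0 reads in both libraries. At 0.5 and 5 TPM, 59 and 46 of 100 list genes were detected, against 57 at 1 TPM. Over all genes, 10900 of 14001 were detected at 1 TPM, and the other thresholds were not counted. With library size alone 21 list genes were apart, against 19 with TMM. Of all 12206 genes with enough reads, 5.42% were apart with TMM. The share of all genes with library size alone was not computed, so the count of 21 has no background.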
